A study of Caenorhabditis elegans with 2 samples.

Results

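The genome of Caenorhabditis elegans carries 612 nuclear tRNA genes, and 276 of them lie on the X chromosome. These 276 were taken as all genes of biotype tRNA on X in the Ensembl annotation of assembly WBcel235. That rule uses no measured values, although the members were chosen with earlier results of these data known. Each was described by the strongest REC-8 peak whose summit, the base of highest signal in the peak, lay within 250 bp of the gene. The peaks came from chromatin immunoprecipitation followed by sequencing (ChIP-seq), which finds the DNA bound by a tagged protein. Strain YL581 is a transgenic line in which REC-8 carries a C-terminal GFP-FLAG tag. Whole hermaphrodites were taken as young adults, 50 h after synchronization as starved L1 larvae, as 2 biological replicates of 1 group. The labels describe a pull-down through GFP, while their antibody field names rec-8. No untagged worms are analysed here, and the control named in the labels is not analysed here either, so binding of the antibody or of chromatin at tRNA genes without REC-8 cannot be told apart from binding of REC-8. Whole worms were used, so cells of the germ line and of the body cannot be told apart.

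tRNA genes are short and are transcribed by RNA polymerase III. Their promoter lies inside the gene, as an A box near the 5′ end and a B box near the 3′ end, both of which are bound by the factor TFIIIC, and a run of T ends the transcript. REC-8 is a meiosis-specific kleisin, the kind of subunit that closes the cohesin ring which holds sister chromatids together. In budding yeast, tRNA genes and TFIIIC have been linked to the loading of cohesin and condensin on chromatin.

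The sequences below are those on which the results turn, in RefSeq's WBcel235 genome (ce11), read 5′ to 3′ on the strand of the gene. Capitals mark the match to the A box and, after it, the match to the B box or to its conserved core. The first is an alanine gene next to the strongest X tRNA peak, chrX:9743589-9743660 on the plus strand. The next 3 are leucine genes with anticodon CAA, which carry an intron and differ 3.38-fold in signal although their spliced sequences differ at no more than 1 base. C04A11.t1 is at chrX:13665555-13665673 on the plus strand, and F42F12.t1 (chrX:12348007-12348126) and F02D10.t3 (chrX:13443386-13443504) are on the minus strand. The histidine gene C06G1.t1 (chrX:16634830-16634901, minus strand) has 8 identical copies on X, of which 4 had no pooled peak. The glutamine genes F47E1.t1 (chrX:9078254-9078325, minus strand) and H08J11.t2 (chrX:9091310-9091381, plus strand) differ at 1 base, and the second had no peak in any list. R04D3.t5 (chrX:13283637-13283708, minus strand) is a threonine gene whose 7 identical X copies all had a peak.
F15G9.t1: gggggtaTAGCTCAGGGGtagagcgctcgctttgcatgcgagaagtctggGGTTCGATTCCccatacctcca
C04A11.t1: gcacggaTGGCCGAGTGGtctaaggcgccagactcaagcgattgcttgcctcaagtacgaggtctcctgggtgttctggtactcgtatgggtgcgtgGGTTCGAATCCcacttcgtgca
F42F12.t1: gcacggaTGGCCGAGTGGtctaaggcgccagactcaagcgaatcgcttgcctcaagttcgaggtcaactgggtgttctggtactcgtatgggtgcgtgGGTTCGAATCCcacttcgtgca
F02D10.t3: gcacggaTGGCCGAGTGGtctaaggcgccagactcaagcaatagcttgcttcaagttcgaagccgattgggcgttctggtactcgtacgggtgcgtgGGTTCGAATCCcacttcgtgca
C06G1.t1: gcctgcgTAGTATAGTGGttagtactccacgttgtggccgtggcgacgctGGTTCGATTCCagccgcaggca
F47E1.t1: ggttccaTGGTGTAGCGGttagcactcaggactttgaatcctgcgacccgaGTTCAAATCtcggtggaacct
H08J11.t2: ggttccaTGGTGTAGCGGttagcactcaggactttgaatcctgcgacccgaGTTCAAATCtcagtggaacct
R04D3.t5: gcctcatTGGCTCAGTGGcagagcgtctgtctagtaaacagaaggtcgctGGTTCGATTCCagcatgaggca

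Most X tRNA genes lay at a REC-8 peak. In the list called by the authors on both replicates pooled, 240 of the 276 genes had a summit within 250 bp (87.0%, exact 95% interval 82.4 to 90.7). Over all 46890 nuclear genes of every biotype the share in the same list was 18.0%. In the list of replicate 1 the count was 233 (84.4%), against 26.0% of all genes, and in the list of replicate 2 it was 230 (83.3%), against 22.6%. A peak was present in both replicates at 217 genes (78.6%), against 15.0% of all genes. The authors' stricter list of 739 peaks, made from the pooled list with a threshold on the irreproducible discovery rate and called the thresholded list here, had a summit at 167 genes (60.5%, interval 54.5 to 66.3), against 2.96%. The intervals cover counting error only and treat genes as independent, although neighbouring genes can share a peak. The 240 genes rest on 210 distinct pooled peaks.

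The share was higher than that of the other annotated gene types with at least 10 genes on X, a difference that was not tested. In the pooled list 642 of 2731 protein-coding genes of X had a summit within 250 bp (23.5%), as did 4 of 33 snoRNA genes, 10 of 74 miRNA genes, 5 of 38 lincRNA genes, 300 of 2520 ncRNA genes (11.9%), 14 of 178 pseudogenes and 3 of 162 piRNA genes. Protein-coding genes are longer than tRNA genes and so have more room for a summit. An ncRNA gene overlaps 160 of the X tRNA genes, so the ncRNA count can include the same peaks. Only 3.59% of the bases of X lay within 250 bp of a pooled summit. Seen from the peaks, 232 of the 1311 pooled peaks of X (17.7%) lay near a tRNA gene, and among the 100 strongest of them 93 did. The same count among the 100 strongest was 94 in replicate 1 and 92 in replicate 2. Weak X peaks thus lay mostly away from tRNA genes and the strong ones mostly at them.

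The X tRNA genes sat high in each list. The signal value of a peak is the peak caller's own and was not scaled between lists, so levels can be compared only within a list and ranks are used across lists. The pooled signal of the 240 genes ran from 43.6 to 359.6, with a median of 121 and quartiles of 87.6 and 157, while the other X peaks had a median of 45.8. Their median place was above 96.0% of the 10019 pooled peaks, and 191 of them (79.6%) were among the strongest 10%. In replicate 1 the median signal was 63.7 and the median place 97.7%, and in replicate 2 they were 60.3 and 96.9%. Only 13 genes rested on a peak in the weaker 50% of the pooled list.

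The strongest X tRNA peak belonged to a pair of alanine genes inside an intron of him-4, which encodes the matrix protein hemicentin. F15G9.t1 (WBGene00014333, anticodon TGC) and F15G9.t2 (WBGene00014334, anticodon AGC) lie 86 bp apart on the same strand, and 1 peak between them served both. Its signal was 359.6 in the pooled list, 178 in replicate 1 and 175 in replicate 2, and it ranked 12th of all pooled peaks. The next peak lay between the divergent genes M02F4.t2 (Glu) and M02F4.t1 (Gly), with 273 in the pooled list, 163 in replicate 1 and 124 in replicate 2. Both peaks lie between genes rather than over a gene, so how much each gene contributes cannot be told apart.

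Among genes with a peak of their own, C28G1.t1 (Glu, anticodon TTC) was the strongest, with 259 in the pooled list, 138 in replicate 1 and 124 in replicate 2. It was also the 1 X tRNA gene that overlaps an exon of a protein-coding gene, C28G1.2. C04A11.t1, the leucine gene shown above, followed with 256, 136 and 126 in the same order of lists. T25B6.t2 (Thr) had 251, 134 and 118. These 3 genes kept their order in replicate 1, while C04A11.t1 was above C28G1.t1 in replicate 2. The remainder of the 10 strongest peaks marked C42D8.t1 (Ile, 239 pooled), F18G5.t1 (Ala, 228), F38G1.t2 (Asp, 226), C40H5.t1 (Leu, 222) and T28B4.t1 (Phe, 222). F38G1.t2 lies in an intron of egl-17, which encodes a fibroblast growth factor. Its peak ranked 29th in replicate 1 and 148th in replicate 2.

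Every isotype, that is, every amino acid the tRNAs carry, had marked members. All X genes for alanine (13), threonine (14), aspartate (12), proline (20) and tryptophan (5) had a pooled peak. Alanine genes had the highest median signal of any isotype (163, range 106 to 359.6), and all 13 were in both replicates and in the thresholded list. Their weakest member, C56G3.t1 in an intron of the receptor gene npr-8, had 106 in the pooled list, 55.6 in replicate 1 and 46.8 in replicate 2. Proline genes differed from alanine genes although all of them had a peak. Their median was 94.4, 15 of 20 had a peak in both replicates and 10 were in the thresholded list. Proline genes fell into a weaker set of 7 genes from 44.5 to 51.2 and a stronger set of 13 from 90.7 to 206, with none between.

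Histidine genes were marked least often among isotypes with at least 5 genes, at 5 of 9, and 4 of the unmarked genes belong to 1 cluster described below. The strongest histidine gene was C06G1.t1, with 149 in the pooled list, 81.7 in replicate 1 and 60.6 in replicate 2. Phenylalanine had 4 of 6 marked, methionine 6 of 8, tyrosine 6 of 8, isoleucine 10 of 13 and glutamine 12 of 15. Arginine, the largest isotype on X, had 24 of 27, with a low median of 97.3. The other isotypes lay between 82.6% and 92.9% of genes marked. With counts this small the exact intervals of all these isotypes overlap, down to histidine (21.2 to 86.3%) and proline (83.2 to 100%).

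The highest member of each further isotype gives the top of its range. It was F46G11.t1 with F46G11.t2 on 1 peak for proline (206), R04D3.t2 for valine (215) and C33G3.t2 for lysine (204). For serine it was E03E2.t1 (200.0), in an intron of the vesicular monoamine transporter gene cat-1, and for asparagine T04F8.t1 (195). Tyrosine had C02B4.t2 (185), methionine C02F12.t1 (169), arginine F09B9.t2 (163), tryptophan C03B1.t1 (162), cysteine F42D1.t1 (159) and glutamine H08J11.t3 (141). Within isotypes the spread was wide. Isoleucine genes with a peak ran from 67.4 to 239, and lysine genes from 43.6 to 204.

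**Figure D1:**
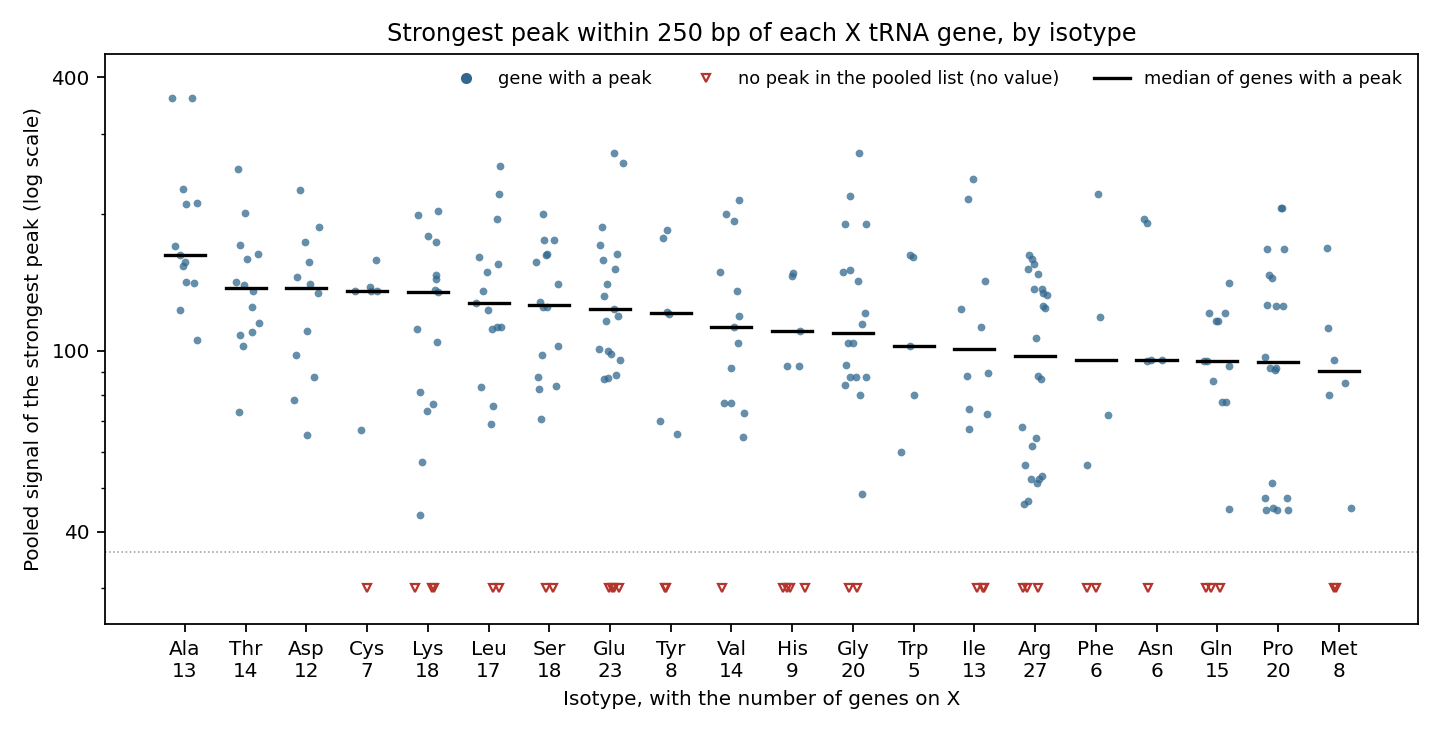
Pooled signal of the strongest peak within 250 bp of each X tRNA gene on a log axis, by isotype with the number of genes below; each point is 1 gene, bars are medians of genes with a peak and open triangles are genes with none. Alanine has the highest median (163) and all 13 of its genes marked, while 4 of 9 histidine genes have no peak.

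Both replicates ordered the genes alike in the main. Over the 217 genes with a peak in both, the signals had a Spearman rho of 0.69, given as a description since neighbouring genes share peaks and all points share 2 libraries. The summits of the 2 replicates lay a median of 36 bp apart, and 134 of 217 pairs (61.8%) lay within 50 bp. A peak in replicate 1 alone was seen at 16 genes (median signal 34.9) and in replicate 2 alone at 13 (median 32.3), all of them below the replicate medians of marked genes except K01A12.t5 and F11A1.t1. A total of 29 genes had no peak in any of the pooled, replicate 1 and replicate 2 lists.

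Some of these differences came from the edge of the window. The strongest gene marked in replicate 1 alone was K01A12.t5 (Cys, 79.1), whose nearest summit in replicate 2 lay 272 bp away. F11A1.t1 (Glu, 64.7) and C36C9.t2 (Arg, 42.4) had their nearest replicate 2 summits 570 bp and 2168 bp away. Replicate 2 alone marked R11B5.t3 (Ile, 51.6), C25F6.t2 (Met, 43.3) and C16B8.t1 (Pro, 42.9), and their nearest replicate 1 summits lay 1885, 261 and 569 bp away. K01A12.t5 and C25F6.t2 were therefore near a peak in both replicates, and the other 4 were not.

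**Figure D2:**
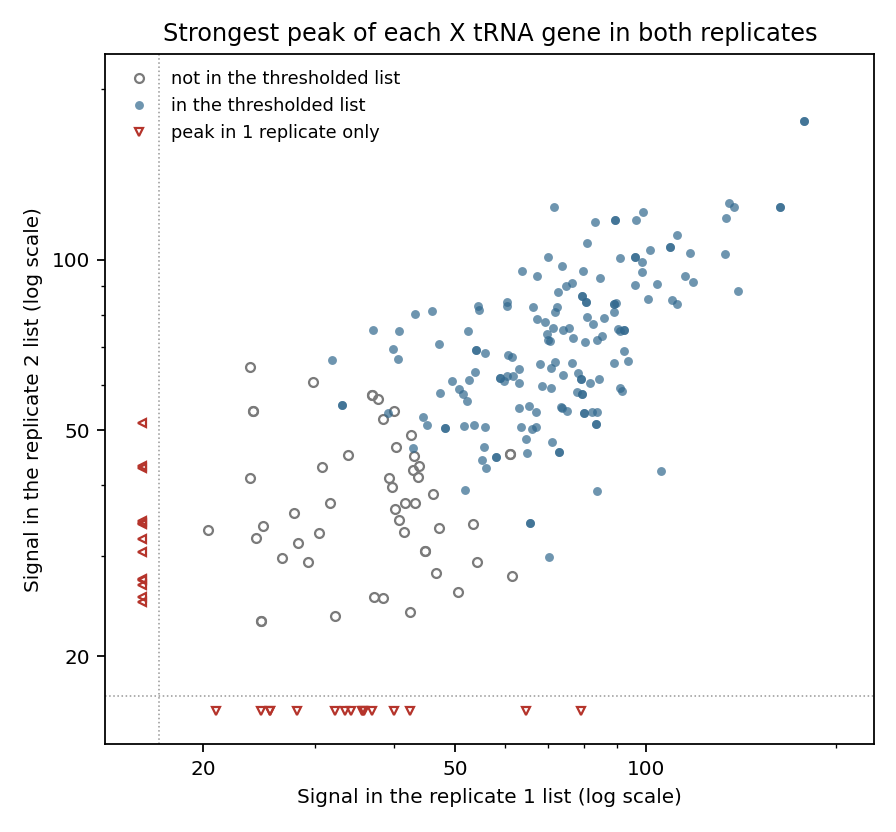
Signal of each X tRNA gene's strongest peak in replicate 1 against replicate 2, log axes; filled points are in the thresholded list, open points are not, and triangles at the margins are genes with a peak in 1 replicate only. The 217 genes with both values rise together (Spearman rho 0.69), and the 29 genes at the margins lie at low signal except 2 of replicate 1.

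At the edge of the thresholded list, R04E5.t6 (93.1) and the pair F28H6.t2 and F28H6.t7 (92.8, 1 peak) were the weakest members inside. D1009.t1 (92.6) and the pair F23D12.t1 and F23D12.t2 (91.9, 1 peak) were the strongest outside, so the boundary falls in a dense range of signal. At the edge of the 250 bp window, F49E7.t3 and K01A12.t5 were each 250 bp from their summit and counted, while C25F6.t2, ZK154.t4 and H08J11.t2 at 255, 258 and 266 bp were not. Of the 36 genes with no pooled peak, 11 had a summit within 500 bp and 17 had none within 1000 bp.

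Where a tRNA gene stood apart from others, its summit lay inside the gene in most cases and near it in nearly all. Among X genes with no other tRNA gene within 500 bp, 168 in number, 153 had a pooled peak. The summit lay a median of 34 bp from the first base of the gene on its own strand (quartiles 9 and 61), and the median gene is 72 bp long. It lay inside the gene in 103 of the 153 (67.3%), upstream in 26 and downstream in 24. Within 50 bp of the gene lay 146 (95.4%). In replicate 1 the median offset was 29 bp with 62.9% inside, and in replicate 2 it was 35 bp with 63.5% inside.

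The gene interior is also where the promoter boxes lie, which a script located by sequence. The A box, searched by its consensus, matched 92.8% of the X tRNA genes on their own strand and 4.27% of 72 bp windows that tile X. The B box letters GGTTCGANNCC matched 64.1% of genes and 0.0918% of windows, and the shorter core GNTCNANNC, which every full B box also contains, matched 98.9% and 6.75%. The letters TTTT followed within 20 bp of the 3′ end in 98.9% of genes, and occurred on 1 strand in 24.5% of windows of 20 bp that tile X. In genes, the A box was sought only near the 5′ end and the core only in the 3′ part. On either strand the A box matched 97.8% of genes and the core 99.6%. These are letter matches only, and the shares of genes and of windows are not strictly alike. Genes with an A box match had a pooled peak at 226 of 256 (88.3%, interval 83.7 to 92.0), and those without at 14 of 20 (70.0%, interval 45.7 to 88.1), and the intervals overlap. Genes with the full B box letters had a peak at 152 of 177 (85.9%) and those without at 88 of 99 (88.9%).

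**Figure D3:**
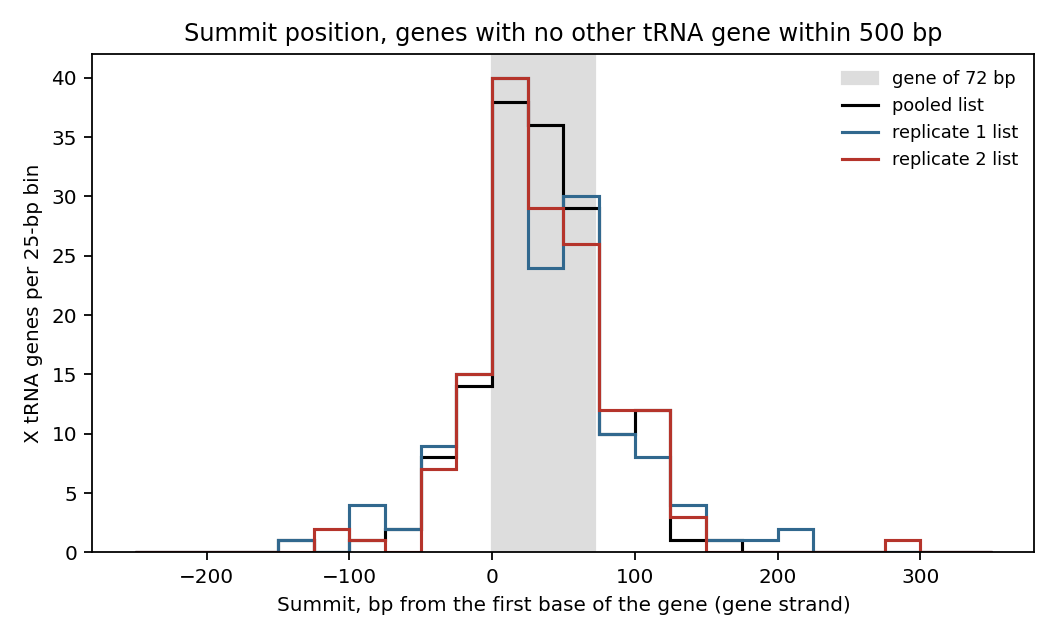
Number of X tRNA genes with no other tRNA gene within 500 bp per 25 bp bin of summit position, counted from the first base of the gene on its strand, in the pooled and both replicate lists; the grey band marks a gene of 72 bp. Most summits fall on the band, with a pooled median of 34 bp.

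In the pooled list neither the host nor the strand of the gene separated marked from unmarked genes. Between protein-coding genes lay 180 X tRNA genes, of which 156 had a pooled peak (86.7%, interval 80.8 to 91.3), and introns held 95, of which 83 did (87.4%, interval 79.0 to 93.3). The median signals were 121 for both places. Among genes with no tRNA gene within 500 bp, 95.5% in introns and 88.1% between genes were marked, with overlapping intervals. Among genes inside a protein-coding gene, 45 of 51 on the same strand as the host and 39 of 45 on the opposite strand had a peak. In the thresholded list these shares were 54.9% (interval 40.3 to 68.9) and 71.1% (interval 55.7 to 83.6), which overlap. On the plus strand of X 119 of 136 genes were marked, and on the minus strand 121 of 140. The 96 genes inside protein-coding genes are spread over 67 hosts, 16 of which hold several, and K01A12.3 and ajm-1, an apical junction gene, hold 5 each. By position along X, a division into left, middle and right stretches of equal length made after values were seen gave 46 of 51 marked in the left, 97 of 107 in the middle and 97 of 118 in the right (82.2%, interval 74.1 to 88.6), with overlapping intervals.

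Clustering separated the genes more than any of these at a window of 250 bp. With tRNA genes joined into a cluster where gaps were at most 1000 bp, 141 genes stood alone and 135 lay in 54 clusters. Of the lone genes 133 had a pooled peak (94.3%, interval 89.1 to 97.5), and of the clustered genes 107 did (79.3%, interval 71.4 to 85.8). The same shares were 92.9% and 75.6% in replicate 1 and 92.2% and 74.1% in replicate 2. In the thresholded list they were 73.8% and 46.7%. The order held in every list and the intervals did not overlap in any of these 4, although the replicate lists and the lists made from them are not independent. The 167 X tRNA genes of the thresholded list are those within the strongest 739 pooled peaks, so that list repeats the pooled signals above a cut. The difference, clustered minus lone, depended on the window. It was -15.1 percentage points (95% interval -23.5 to -6.75) at 250 bp, and -6.92 points at 500 bp or with any base of the peak counted, with an interval that includes 0 (-14.4 to 0.352). Pooled medians of marked genes were 126 for lone and 97.8 for clustered genes.

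Unmarked genes were found in clusters of every size. Of the 39 pairs, 32 had both genes marked, and in 19 of these 1 peak served both. Marked genes were 68 of 78 in pairs (87.2%), 20 of 27 in clusters of 3 (74.1%), 5 of 8 in clusters of 4, 7 of 10 in clusters of 5 and 7 of 12 in the 2 clusters of 6. The last share has an interval of 27.7 to 84.8% and includes the 4 unmarked genes of the F28H6 cluster described below, and the intervals of all these sizes overlap. Only 3 of the 15 larger clusters had every gene marked. In 3 pairs no gene had a pooled peak. These were F52E10.t1 with F52E10.t2, F52E10.t3 with F52E10.t4, and T25D1.t2 with T27B1.t1. The first 2 pairs are glutamate genes 9753 bp apart, and their neighbour F52E10.t5, a lone copy of the same glutamate sequence as F52E10.t3 and F52E10.t4, had a peak with 171 in the pooled list, 73.8 in replicate 1 and 97.3 in replicate 2.

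The largest clusters show how few peaks a row of genes can have. The F28H6 cluster holds 6 identical histidine genes within 1966 bp on both strands (chrX:14135045-14137010). A peak at its left end, with 92.8 in the pooled list, 33.2 in replicate 1 and 55.3 in replicate 2, marked F28H6.t2 and F28H6.t7, and the other 4 genes had none in any list. Flanks of 100 bp repeated elsewhere in the genome were found at 7 X tRNA genes, 4 of them in this cluster, and 2 of the 7 were marked, against 238 of 269 genes with unrepeated flanks. How reads from repeated sequence were placed is not given in the sources used here, and its part in these counts was not tested. The F22F1 cluster of 6 genes holds serine, aspartate, methionine and isoleucine genes and had 5 marked by 3 peaks, from 140.3 at F22F1.t2 and F22F1.t3 down to 87.8 at F22F1.t4 and F22F1.t5, while the methionine gene F22F1.t6 had none.

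Clusters of 5 filled introns of K01A12.3 and ajm-1. In K01A12.3 the 3 cysteine genes K01A12.t2, K01A12.t4 and K01A12.t5 shared 1 pooled peak of 136 as their strongest. A weaker peak of 51.2 marked the arginine gene K01A12.t3, but its summit lay inside K01A12.t2, 159 bp from K01A12.t3. K01A12.t1 had no pooled peak. In ajm-1 the 5 glutamine genes had 2 peaks. H08J11.t3 had 141 in the pooled list, 60.5 in replicate 1 and 83.0 in replicate 2, and H08J11.t5 with H08J11.t1 had 77.1, 44.9 and 30.7. H08J11.t2 and H08J11.t4, which lie between them, had none in any list. The 4 identical valine genes of T01B4 lie on 1 strand within 2321 bp and had pooled signals of 194, 64.6, none and 135 from left to right, and the 4 identical tyrosine genes of R11 had 70.0, none, none and 177.

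Genes of the same sequence differed in signal. The 276 genes have 106 distinct sequences, and 26 sequences have at least 4 copies on X, 186 genes in all, of which 167 had a pooled peak. In 15 of the 26 families every X copy was marked. The highest copy exceeded the lowest marked copy by a median of 2.90-fold, from 1.60-fold to 5.62-fold. Reads that fall wholly inside identical copies cannot be placed by sequence alone. The proline family with anticodon TGG, the largest, had 13 copies, all marked, from 206 at F46G11.t1 and F46G11.t2 to 45.2 at ZK678.t3. The glutamate family with anticodon CTC had 10 of 12 marked, from 273 at M02F4.t2 to 87.1 at F15A8.t1. The glycine family with anticodon TCC had 10 of 11, from 273 at M02F4.t1 to 48.5 at R04E5.t4. Both values of 273 are of the 1 peak between M02F4.t1 and M02F4.t2, and the 206 is also of a shared peak. Marked copies with no tRNA gene within 500 bp had narrower ranges. Proline ran from 45.2 to 147 (4 copies), glutamate from 87.1 to 171 (8 copies) and glycine from 114 to 219 (2 copies).

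Families differed in how even they were. The 7 threonine genes identical to R04D3.t5 had pooled signals from 103 to 164, a spread of 1.60-fold that was the smallest of the 26 families, and all 7 had a peak in both replicates and in the thresholded list. None of them has another tRNA gene within 500 bp. R04D3.t5 itself had 164 in the pooled list, 80.9 in replicate 1 and 79.1 in replicate 2. Of the families found only on X, the arginine family with anticodon ACG had all 10 copies marked, with a spread of 3.17-fold. Its 7 copies with no tRNA gene within 500 bp lay between 125 and 163, and the 3 others, T06H11.t2, T06H11.t3 and K01A12.t3, at 124, 86.7 and 51.2. The last value, which sets the spread, is of the peak whose summit lay inside the cysteine gene K01A12.t2. The leucine family with anticodon AAG, also only on X, had 8 of 9 marked, from 69.1 at C05E7.t3 to 155 at C04E7.t1, and its unmarked copy C05C9.t2 is in a pair with the marked copy C05C9.t1 (123).

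**Figure D4:**
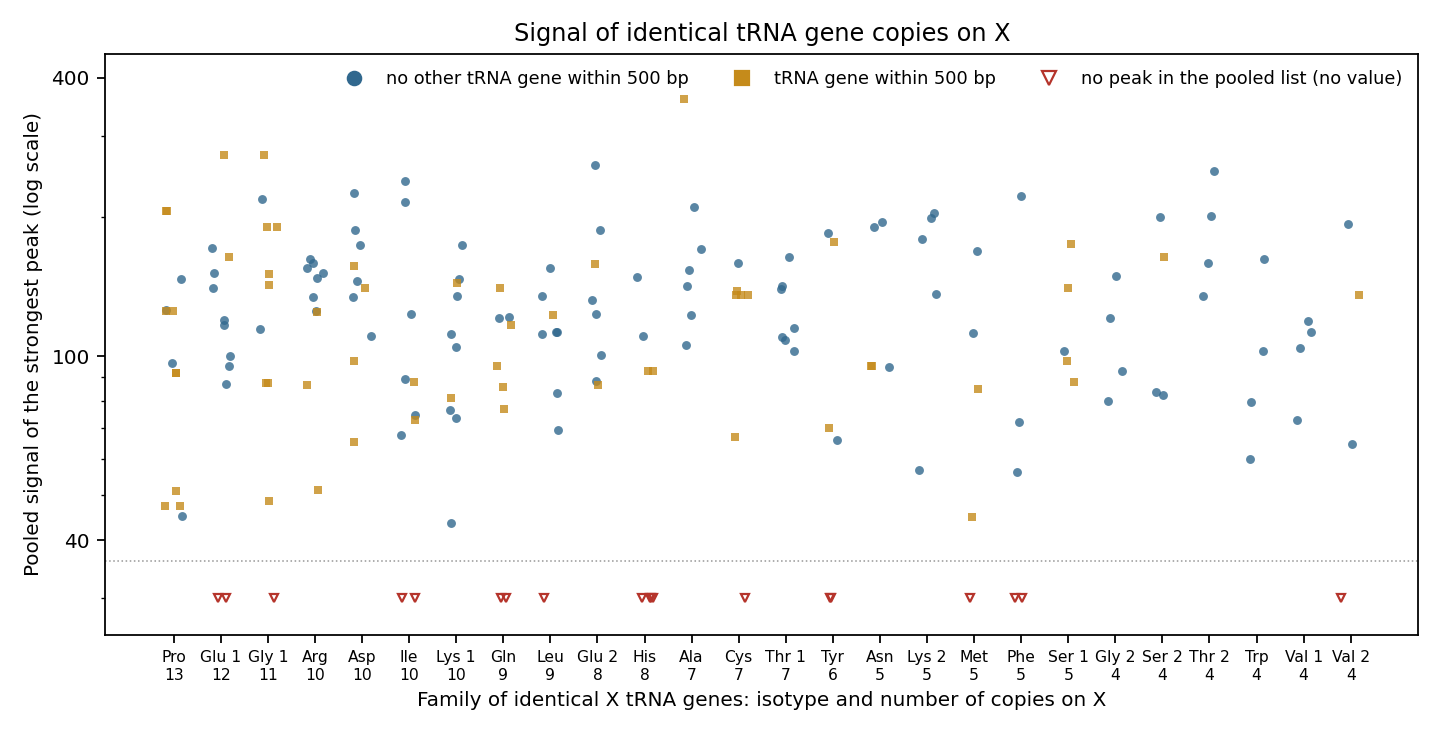
Pooled signal on a log axis of every X copy of the 26 sequences with at least 4 X copies, with isotype and number of copies below; circles have no tRNA gene within 500 bp, squares do, and open triangles are copies with no pooled peak. Identical copies spread by 1.60-fold to 5.62-fold between the highest and the lowest marked copy, with a peak shared by neighbouring genes counted for each.

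Genes with an identical copy elsewhere in the nuclear genome were marked more often than genes with a sequence of their own, a split made after values were seen. Of 219 genes with a copy 196 had a pooled peak (89.5%, interval 84.7 to 93.2), and of 57 without 44 did (77.2%, interval 64.2 to 87.3). The intervals overlap. Among lone genes the split was wider, with 111 of 113 marked (98.2%, interval 93.8 to 99.8) against 22 of 28 (78.6%, interval 59.0 to 91.7). In replicate 1 it was 109 of 113 against 22 of 28, and in replicate 2 it was 112 of 113 against 18 of 28. Among clustered genes the counts were 85 of 106 and 22 of 29. Lone genes with an identical copy thus came nearest to having every gene marked, and in the thresholded list 81.4% of them had a summit.

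The exceptions on either side are few. B0395.t1 (Ser) and F47A4.t1 (Ile) were the 2 lone genes with a copy and no pooled peak, and F47A4.t1 had a peak of 27.3 in replicate 2. The 6 lone genes with no copy and no pooled peak were Y75D11A.t2 (Arg), F08F1.t3 (Leu), K02D3.t1 (isotype not given), C31E10.t1 (Gly), M163.t1 (Lys) and Y7A5A.t5 (Ser). Of these only M163.t1 had a peak in any list, 20.9 in replicate 1. F08F1.t3, C31E10.t1 and Y7A5A.t5, and also B0395.t1, lack an A box match, as do 20 of the 276 genes. Among genes with no identical copy C04A11.t1 (256) and F35A5.t1 (Val, 201) were nonetheless among the strongest lone genes.

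Some genes that differ by few bases had different values and others had close ones. Each pair also differs in place, and identical copies differed by 1.60-fold to 5.62-fold where a shared peak is counted for each of its genes. A part of the sequence change in these values was not tested. The leucine genes with anticodon CAA shown above are each present once in the genome as a full sequence, although they share most of their bases. C04A11.t1 had 256 in the pooled list, 136 in replicate 1 and 126 in replicate 2. F42F12.t1, whose spliced sequence of 84 bases is identical and whose intron is 36 in place of 35 bases long, had 149, 66.3 and 82.4. F02D10.t3, with 1 spliced difference, had 75.8, 41.5 and 33.2. The order of the 3 genes was the same in each list. F02D10.t3 is in a pair with the serine gene C29F7.t2 and the others stand alone.

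Glutamine genes with anticodon TTG gave a second such set, with positions counted from 1 at the 5′ end of F47E1.t1. F47E1.t1 had 121 in the pooled list, 63.0 in replicate 1 and 64.2 in replicate 2. D1009.t1 differs by G29T and had 92.6, 38.4 and 52.4. F47E1.t2 differs by C47T and G50A and had 44.8 in the pooled list, 25.5 in replicate 1 and no peak in replicate 2. H08J11.t2 differs by G63A and had no peak in any list, but so did H08J11.t4 beside it, which is identical to F47E1.t1. The nearest summits to H08J11.t2 lay 266 bp away in the pooled list, 304 bp in replicate 1 and 251 bp in replicate 2. They were thus just past the window of 250 bp in 2 of these lists. In histidine, ZC449.t1 differs from C06G1.t1 and its copies by G7T and C65A and had 146, 74.0 and 75.1, close to the 149, 81.7 and 60.6 of C06G1.t1.

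**Figure D5:**
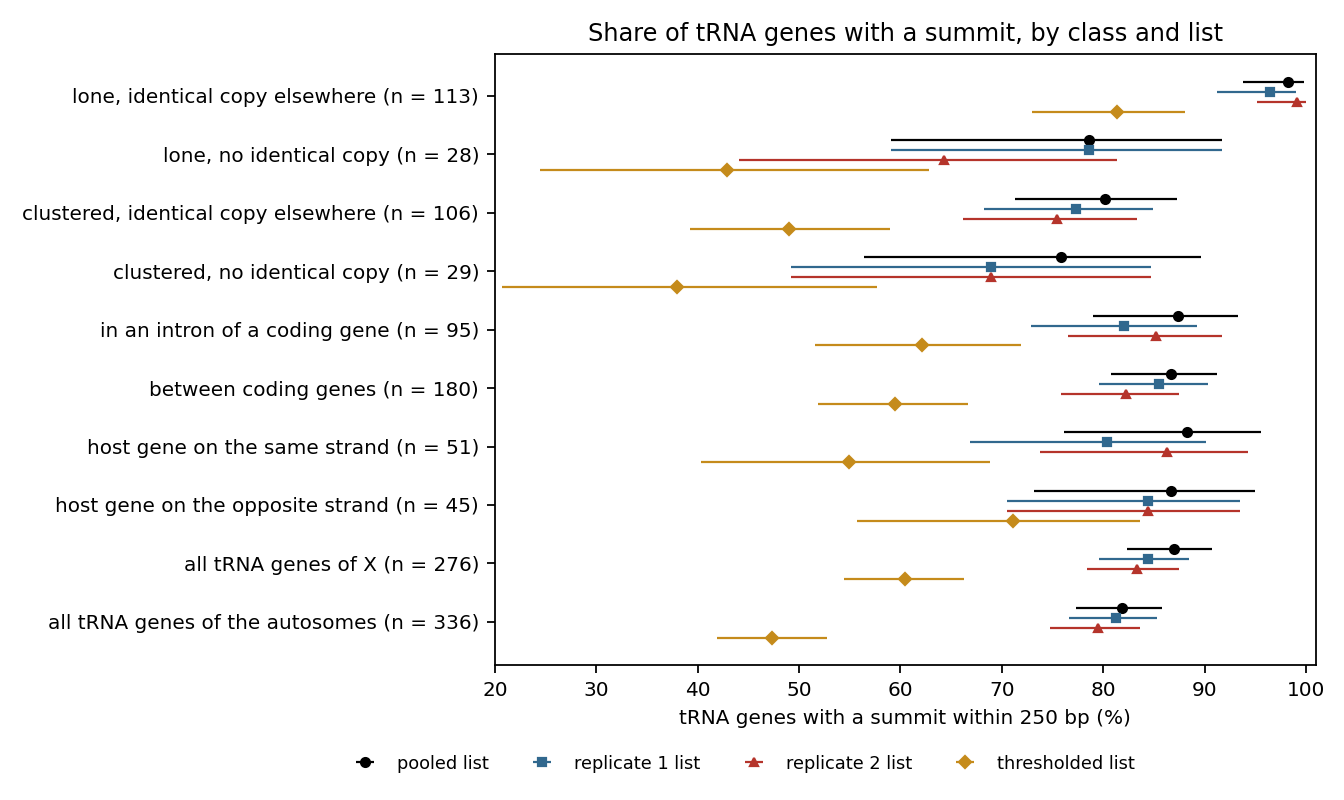
Share of tRNA genes with a summit within 250 bp in the pooled, replicate 1, replicate 2 and thresholded lists, with exact 95% intervals, by cluster and identical copy, by place and host strand on X, and for X beside the autosomes. Lone genes with an identical copy stand at 98.2% in the pooled list, the highest class drawn, and intron and intergenic genes stand together at 87.4% and 86.7%.

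The tRNA genes of the 5 autosomes, counted as 1 set of 336, had lower shares than those of X in the pooled and the thresholded list. The pooled share was 275 of 336 (81.8%, interval 77.3 to 85.8), against 87.0% on X, and the intervals overlap. By chromosome it was 78.8% on I, 86.0% on II, 87.5% on III, 78.9% on IV and 79.5% on V, so III was not below X. Both replicates marked 74.4% against 78.6%. That share was 71.2% on I, 78.9% on II, 78.1% on III, 74.6% on IV and 70.5% on V, so II was not below X. The thresholded share was 159 of 336 (47.3%, interval 41.9 to 52.8), against 60.5% on X, and these intervals do not overlap. Among genes with no other tRNA gene within 500 bp, the pooled shares were 222 of 274 on the autosomes (81.0%, interval 75.9 to 85.5) and 153 of 168 on X (91.1%, interval 85.7 to 94.9). That difference was 10.0 percentage points (interval 3.06 to 16.5), against 5.11 over all tRNA genes, where the interval includes 0. The median pooled signal was 102 on the autosomes and 121 on X. X was above the autosomes in 15 of 20 isotypes in the thresholded list, and in 11 of 20, with 1 equal, in the pooled list. In 13 of the 20 families with at least 4 copies on each side the median signal was higher on X. Among genes with an identical copy elsewhere, the pooled shares were close, at 89.5% on X and 88.0% on the autosomes. For these genes replicate 1 gave 87.2% and 88.4%, replicate 2 87.7% and 84.4%, and the thresholded list 65.8% and 52.8%. Among genes with no identical copy the pooled shares were 77.2% on X and 64.0% on the autosomes, and the thresholded shares 40.4% and 31.4%. No difference between X and the autosomes was tested, and the genes differ in layout, since 48.9% of X tRNA genes are clustered against 30.1% on the autosomes and 95 of 276 lie in introns against 188 of 336.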

How the data were processed

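Peak lists were made by the authors, for each replicate and for both pooled, with a thresholded list of the pooled peaks, per the labels and file listings deposited with the samples. Each holds the peak caller's signal, which was deposited unscaled between lists. The deposited −log10 value of each peak was not used for ranking. Nearly all peaks of a list have 1 width (430 bp pooled, 436 bp replicate 1, 444 bp replicate 2), and the deposited offset gives the summit. Aligner, peak caller and depth are unknown here.

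Genes came from Ensembl release 115, isotypes and sequences from RefSeq WBcel235, which is build ce11. Isotypes were missing for 3 genes. Anticodons were read by a script from a stem of 5 bp and a loop of 7 bases, for 268 of 276 genes. The members and lists were chosen with earlier results of these data known. Named genes were the 10 strongest peaks, the strongest gene of each isotype with at least 5 genes, the 3 largest families and clusters, the strongest genes marked in 1 replicate alone and those at the threshold. Others, among them the leucine, glutamine and histidine sets, were chosen after their values were seen. Shares have exact (Clopper-Pearson) intervals, and the interval of a difference was combined from those of its 2 shares (square-and-add). With 1 group and 2 samples no test between groups was possible. The search for the strongest peak was checked on simulated data. Scripts used Python 3.11.15 with pandas 2.3.3, numpy 2.4.6 and scipy 1.17.1. Alternatives were other windows, lists, cluster gaps and overlap rules.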

Additional observations from a re-analysis of the deposited data

How the results depend on the processing

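Of 55 alternative values, 36 kept within the interval or bounds of the main value and 19 moved. The pooled share of X tRNA genes was 46.0% with the summit inside the gene, 79.7% within 100 bp, 90.9% within 500 bp, 60.5% in the thresholded list, 78.6% with the strongest 2000 peaks, 90.9% with any base of the peak overlapping, and 91.1% for genes with no tRNA gene within 500 bp. The difference between X and the autosomes went from 5.11 to 13.2 percentage points in the thresholded list, 9.28 with the strongest 2000 peaks and 10.0 for genes with no tRNA gene within 500 bp. Intron minus intergenic changed sign, from 0.702 to -8.89 points with the summit inside the gene and to -3.45 without replicate 2 (3.04 without replicate 1), each with an interval that includes 0, as does that of the main value. Clustered minus lone went from -15.1 to -40.8 points with the summit inside the gene, -29.9 within 100 bp and -27.1 in the thresholded list, and shrank to -6.92 (-14.4 to 0.352) within 500 bp and with any base of the peak. Genes marked in both replicates numbered 71 with the summit inside the gene and 143 without neighbours within 500 bp, and thresholded genes numbered 91 with the summit inside. The median place in the list was 96.9% to 97.7% when 1 replicate was left out, and 62.8% within the thresholded list, which holds strong peaks by construction. The spread among identical copies was 1.60-fold in the thresholded list, where weak copies are missing. The cause of the other moves was not tested. No paired analysis was possible because the 2 samples form 1 group. With depth unknown, a gene with no peak in a list cannot be read as a gene with no signal.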
